A study of Mus musculus with 18 samples.

Results

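The genes described here are 10 components of the Notch pathway: the receptors Notch1, Notch2, Notch3 and Notch4, the ligands Jag1, Jag2 and Dll1, and the target genes Hes1, Hey1 and Heyl. They were chosen by symbol from a read-count table of 35275 mouse genes, and all 10 were in the table and passed the filter on low counts. RNA-seq was run on cell lines grown from mouse malignant peripheral nerve sheath tumors (MPNSTs), aggressive sarcomas that arise in peripheral nerve. Wild-type 129 Sv/Jae mice had received an adenovirus in the sciatic nerve that carried Cas9 under the cytomegalovirus promoter with guide RNAs, directed at Nf1 and p53 (Trp53 in the mouse) or at Nf1 and Cdkn2a. The 2 groups were therefore Nf1/p53 dKO and Nf1/Cdkn2a dKO (double knockout) lines, each with 3 lines from separate tumors. Each line was grown untreated in 3 cultures, which gave 18 libraries. Both groups were made to lack Nf1, so the comparison holds no line with intact Nf1. The promoter that drove Cas9 is active in many cell types, so the cell in which a tumor began was not fixed by the design, and every line stood for a single tumor.

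Notch receptors are single-pass membrane proteins that bind Jagged and Delta-like ligands on neighboring cells. Binding allows an ADAM protease and then γ-secretase to cut the receptor, and the freed intracellular domain moves to the nucleus, joins the DNA-binding protein RBPJ and a Mastermind coactivator, and switches on genes such as Hes1, Hey1 and Heyl, which encode transcriptional repressors. In peripheral nerve Notch signaling acts in the development of Schwann cells, in muscle progenitors it helps to keep cells undifferentiated, and NOTCH3 is best known from the mural cells of vessels.

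Promoter sequence is shown for the receptor with the highest level per length (Notch2), for the receptor with the largest fitted difference between genotypes (Notch3), and for Rbpj, the nuclear partner of every Notch receptor. Each run holds the 250 bases before the RefSeq transcript start in build GRCm38.p6, on the strand of the gene. Capitals mark TGGGAA, the core of the RBPJ site, read on either strand.
Notch2, chr3:98013288-98013537, plus strand: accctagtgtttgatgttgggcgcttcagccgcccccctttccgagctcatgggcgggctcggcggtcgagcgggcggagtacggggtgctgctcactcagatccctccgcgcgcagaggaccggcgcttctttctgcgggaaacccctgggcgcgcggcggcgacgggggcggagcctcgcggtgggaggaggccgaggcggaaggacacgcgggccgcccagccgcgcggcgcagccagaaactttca
Notch3, chr17:32166891-32167140, minus strand: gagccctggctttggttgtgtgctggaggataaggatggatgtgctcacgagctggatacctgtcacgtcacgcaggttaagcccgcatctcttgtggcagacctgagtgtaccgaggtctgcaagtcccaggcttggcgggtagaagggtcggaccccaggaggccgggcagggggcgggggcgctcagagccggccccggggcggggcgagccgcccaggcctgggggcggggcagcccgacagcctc
Rbpj, chr5:53590096-53590345, plus strand: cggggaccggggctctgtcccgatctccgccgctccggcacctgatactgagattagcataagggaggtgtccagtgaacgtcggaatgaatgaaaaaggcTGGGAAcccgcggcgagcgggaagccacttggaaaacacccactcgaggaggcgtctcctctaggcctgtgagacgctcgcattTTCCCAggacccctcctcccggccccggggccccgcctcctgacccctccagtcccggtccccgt
RefSeq start windows were held for 7 of the 10 genes, and those of Hes1, Hey1 and Heyl were not used here. No window of the 7 genes (300 bases, 250 before the start and 50 after) held TGGGAA, which occurred in 25.6% of all 32851 such windows, and the longer form GTGGGAA, which contains it, occurred in 6.38%. Over the 250 bases before the start these shares were 21.6% and 5.42%. The Rbpj window printed, the first of those listed for the gene, held TGGGAA at 2 places, once on each strand. These are counts of letters in these windows and say nothing on where RBPJ bound.

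Each culture gave 19560535 to 28312207 counts, and the cultures of a line summed to 65206479 to 73065228. Levels below are in CPM, counts scaled to library size with TMM, for each culture or for the sum over a line, and a floor of 3 counts in a culture stood at 0.0996 to 0.160 CPM. Trp53 RNA was at 58.7 to 94.1 CPM in the lines of Nf1/p53 dKO and at 185 to 247 CPM in those of Nf1/Cdkn2a dKO, while Nf1 and Cdkn2a RNA overlapped between the genotypes (Cdkn2a 42.9 to 363 CPM against 169 to 391.6 CPM), and counts over a whole gene do not show whether a guide cut it. The labelled cell type was mesenchymal, and all 6 mesenchymal markers, Vim and Col1a1 among them, exceeded 1 CPM in the lines, summing to 8081 to 22040 CPM in Nf1/p53 dKO and 10150 to 17080 CPM in Nf1/Cdkn2a dKO. Of 6 Schwann cell markers 4 exceeded 1 CPM in at least 1 line, with a summed level of 2.37 to 10.4 CPM against 1.44 to 2.33 CPM, and Sox10, the defining factor of that lineage, stayed at or under 0.099 CPM. Of 6 muscle progenitor markers 3 exceeded 1 CPM in an Nf1/p53 dKO line and 0 in an Nf1/Cdkn2a dKO line, with a summed level of 52.6 to 329 CPM against 0.141 to 0.332 CPM, and 4 of them had no count in any Nf1/Cdkn2a dKO line.

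Did the genotypes differ in the RNA of Notch pathway components? Of the 10 genes, Heyl alone differed between genotypes, and it was lower in Nf1/Cdkn2a dKO. The test was edgeR's quasi-likelihood test on the 6 lines with Benjamini-Hochberg adjustment over all 15207 genes tested. Heyl passed the filter on low counts only through the Nf1/p53 dKO lines, with 80, 83 and 117 counts against 2, 0 and 0. This count of 1 of 10 stands beside 1.80% of all genes called in either direction, 1.16% called lower and 0.638% called higher. The log2 fold changes, given throughout as Nf1/Cdkn2a dKO over Nf1/p53 dKO, were negative for 8 of the 10 genes and positive for 2 (median -1.06, against -0.0232 over all genes tested). An unadjusted p under 0.05 was found for 3 of the 10 genes and for 22.4% of all genes. No overlap between the lines of one genotype and those of the other was seen for 4 of the 10 genes, each lower in Nf1/Cdkn2a dKO, beside 31.4% of all genes that did not overlap in either direction and 16.6% that were lower. DESeq2 on the same 6 lines called 3 of the 10 genes (Notch2, Notch3 and Heyl) and 14.4% of all genes to which it gave an adjusted p.

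**Figure D1:**
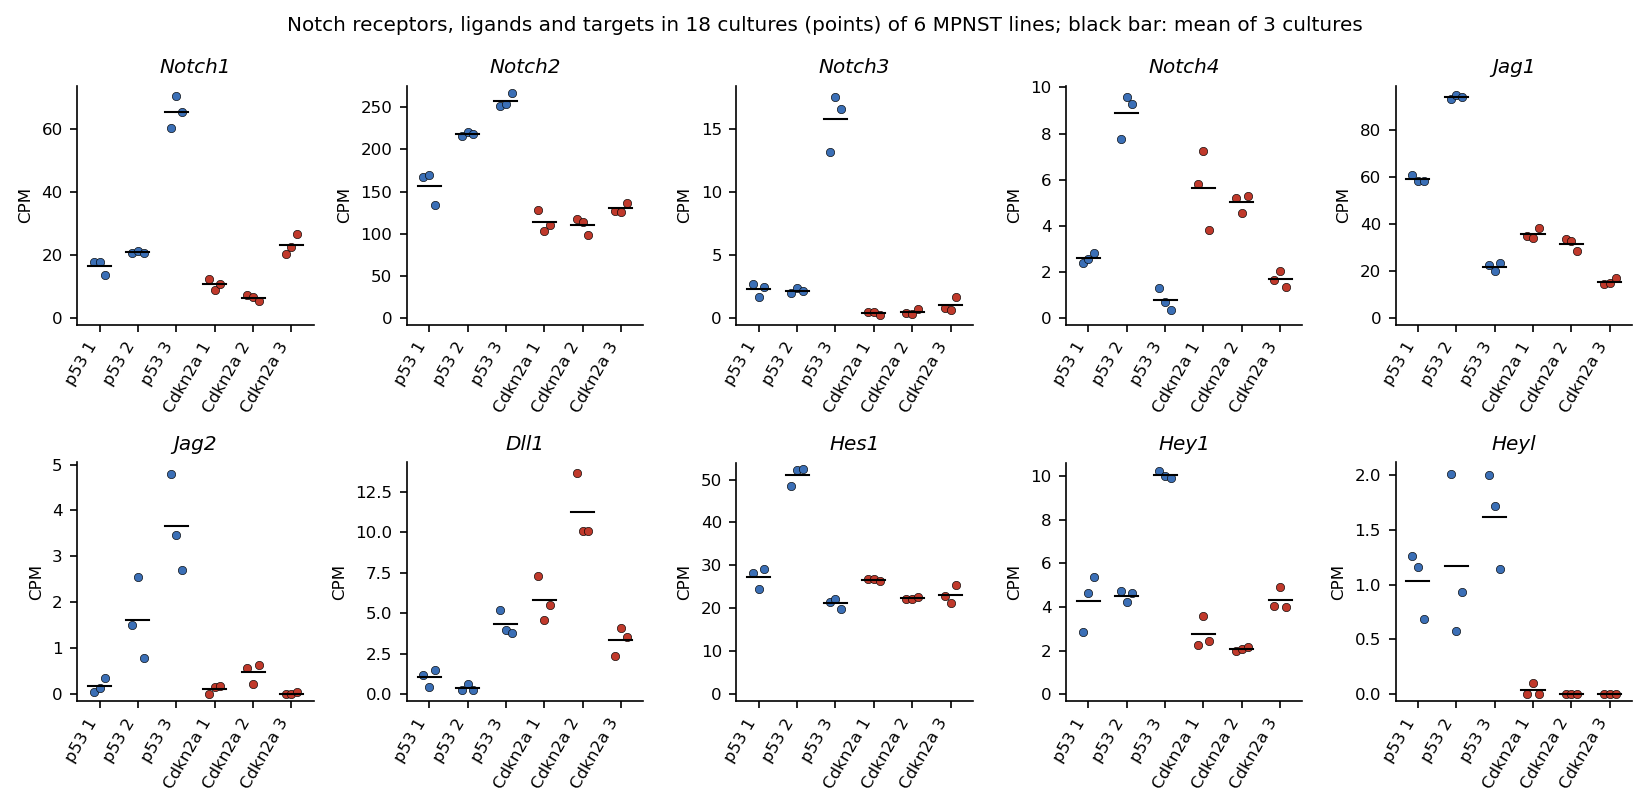
CPM (y axis, from 0, each gene on its own scale) of the 10 genes in the 18 cultures (points; blue, Nf1/p53 dKO; red, Nf1/Cdkn2a dKO) of the 6 lines (x axis), with a black bar at the mean of the 3 cultures. Heyl lay at 0.577 to 2.01 CPM in the Nf1/p53 dKO cultures and at or under 0.107 CPM in the Nf1/Cdkn2a dKO cultures, while the line levels of the genotypes overlap for Notch1, Notch4, Jag1, Jag2, Dll1 and Hes1.

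Among the receptors, Notch2 (ENSMUSG00000027878, chr3:98013527-98150361, plus strand, 34 merged exons) was at 156, 218 and 257 CPM in Nf1/p53 dKO lines 1, 2 and 3 and at 114, 111 and 131 CPM in Nf1/Cdkn2a dKO lines 1, 2 and 3. Every Nf1/p53 dKO line was above every Nf1/Cdkn2a dKO line, although the lowest culture of Nf1/p53 dKO line 1 (134 CPM) fell just under the highest culture of Nf1/Cdkn2a dKO line 3 (137 CPM). The means were 211 ± 51.0 CPM and 118 ± 10.5 CPM (SD, n = 3 lines each), a log2 fold change of -0.83 (SE 0.21) with an edgeR adjusted p of 0.0894, which did not pass the threshold of 0.05. DESeq2 on the same lines gave an adjusted p of 0.0101 for this gene. Gm42820, annotated on the same strand, shares 541 exon bases with Notch2 and was not among the genes counted. With bulk RNA from a culture, fewer cells that express a gene and less of its RNA in each cell cannot be told apart.

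Notch3 (ENSMUSG00000038146, chr17:32120820-32166852, minus strand, 33 merged exons) was at 2.20, 2.16 and 15.8 CPM in the lines of Nf1/p53 dKO and at 0.369, 0.447 and 1.05 CPM in those of Nf1/Cdkn2a dKO. Lines were separate by genotype, but line 3 of Nf1/p53 dKO stood far above the other two of its genotype, and a single culture of Nf1/Cdkn2a dKO line 3 (1.669 CPM) reached the lowest Nf1/p53 dKO culture (1.66 CPM). The log2 fold change was -3.43 (SE 0.98) with an edgeR adjusted p of 0.113, and DESeq2 gave an adjusted p of 0.00132. Without Nf1/p53 dKO line 3 the log2 fold change was -1.81 (SE 0.55) with an edgeR adjusted p of 0.152. That line also had the highest Myod1, the myogenic determination factor, at 204 CPM against 1.75 and 0.269 CPM in lines 1 and 2 of the genotype, and 0 CPM in every Nf1/Cdkn2a dKO line. The 6 mural markers summed to 73.4 to 158 CPM in Nf1/p53 dKO and 34.8 to 256 CPM in Nf1/Cdkn2a dKO, with 4 and 3 of them above 1 CPM in a line, and Kcnj8 stayed at or under 0.0481 CPM. Cspg4 alone was at 28.2 to 255 CPM, and for Cspg4, Rgs5 and Myh11 the lines of the genotypes overlapped. Des was at 21.6, 1.30 and 86.6 CPM in the lines of Nf1/p53 dKO and at most 0.529 CPM in those of Nf1/Cdkn2a dKO. The part of the muscle and mural transcripts in the Notch3 difference was not tested. The antisense gene Gm17276 shares 488 exon bases with Notch3 and had 37 counts in all, against 1468 counts of Notch3 in Nf1/p53 dKO and 121 in Nf1/Cdkn2a dKO. Whether counting used strand is not given in the sources used here.

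Notch1 (ENSMUSG00000026923, chr2:26457903-26516663, minus strand, 40 merged exons) was at 16.4, 20.8 and 65.6 CPM in the lines of Nf1/p53 dKO and at 10.7, 6.46 and 23.2 CPM in those of Nf1/Cdkn2a dKO. The ranges overlapped, since Nf1/Cdkn2a dKO line 3 was above lines 1 and 2 of Nf1/p53 dKO. Its log2 fold change of -1.35 (SE 0.68) did not pass the test (edgeR adjusted p = 0.294), and it was -0.46 (SE 0.54) without Nf1/p53 dKO line 3. The antisense genes 0610009E02Rik and Gm13568 share 1068 and 414 exon bases with Notch1 and had 97 and 8 counts in all, beside 7484 counts of Notch1 in Nf1/p53 dKO and 2602 in Nf1/Cdkn2a dKO. Notch4 (ENSMUSG00000015468, chr17:34564268-34588503, plus strand, 31 merged exons), the receptor best known from endothelium, was at 2.58, 8.87 and 0.761 CPM in the lines of Nf1/p53 dKO and at 5.52, 5.02 and 1.67 CPM in those of Nf1/Cdkn2a dKO. Its means of 4.07 ± 4.25 CPM and 4.07 ± 2.09 CPM (SD, n = 3 lines each) were nearly equal, with a log2 fold change of 0.00080 (SE 0.89, edgeR adjusted p = 0.9996), and the sign turned under several settings given in the closing section. The 6 endothelial markers summed to 1.37 to 2.09 CPM in Nf1/p53 dKO and 0.704 to 2.14 CPM in Nf1/Cdkn2a dKO. Notch4 in its highest line, Nf1/p53 dKO line 2 (8.87 CPM), exceeded the sum of all 6 in any line. In its lowest, Nf1/p53 dKO line 3 (0.761 CPM), Notch4 was under the sum in every Nf1/p53 dKO line. The part of endothelial transcripts in the Notch4 level was not tested.

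The ligands differed in direction, and none passed the test. Jag1 (ENSMUSG00000027276, chr2:137081456-137116644, minus strand, 25 merged exons) was at 58.5, 93.7 and 21.8 CPM in the lines of Nf1/p53 dKO and at 35.9, 31.8 and 15.3 CPM in those of Nf1/Cdkn2a dKO. The lowest Nf1/p53 dKO line, line 3, lay within the range of the Nf1/Cdkn2a dKO lines. Its log2 fold change was -1.07 (SE 0.56, edgeR adjusted p = 0.308), and -0.53 without Nf1/p53 dKO line 2. Jag2 (ENSMUSG00000002799, chr12:112907819-112929776, minus strand, 24 merged exons) was close to the detection floor in 3 lines, with 14, 116 and 264 counts in the Nf1/p53 dKO lines (0.180, 1.64 and 3.65 CPM) and 7, 33 and 1 counts in the Nf1/Cdkn2a dKO lines (0.112, 0.476 and 0.0156 CPM). Its log2 fold change of -3.16 (SE 1.35) came with an edgeR adjusted p of 0.233, and line 1 of Nf1/p53 dKO was under line 2 of Nf1/Cdkn2a dKO. The value was -4.79 without Nf1/Cdkn2a dKO line 2 and -2.15 without Nf1/p53 dKO line 3.

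Dll1 (ENSMUSG00000014773, chr17:15367354-15376872, minus strand, 12 merged exons) went the other way, at 1.01, 0.396 and 4.32 CPM in the lines of Nf1/p53 dKO and 5.82, 11.5 and 3.33 CPM in those of Nf1/Cdkn2a dKO. Lines 1 and 2 of Nf1/p53 dKO were below every Nf1/Cdkn2a dKO line, and line 3 of Nf1/p53 dKO was above line 3 of Nf1/Cdkn2a dKO. For Dll1 the log2 fold change was 1.85 (SE 0.92) with an edgeR adjusted p of 0.289, and without Nf1/p53 dKO line 3 it was 3.29 (SE 0.75) with an adjusted p of 0.103. The antisense gene A930024N18Rik shares 867 exon bases with Dll1 and had 30 counts in all, beside 418 counts of Dll1 in Nf1/p53 dKO and 1370 in Nf1/Cdkn2a dKO.

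Among the targets, Heyl (ENSMUSG00000032744, chr4:123233556-123249875, plus strand, 6 merged exons), a repressor of the Hairy and enhancer-of-split family, was detected in all 9 Nf1/p53 dKO cultures and in 1 of the 9 Nf1/Cdkn2a dKO cultures. In Nf1/p53 dKO it had 28, 35 and 17 counts in the cultures of line 1, 48, 14 and 21 in those of line 2, and 47, 43 and 27 in those of line 3. In Nf1/Cdkn2a dKO it had 0, 2 and 0 counts in line 1 and 0 counts in each culture of lines 2 and 3. The cultures of the genotypes did not overlap, and the level was low even where the gene was detected, at 1.03, 1.17 and 1.62 CPM in the lines of Nf1/p53 dKO. Summed over lines, 280 counts stood against 2, a ratio per library size of 124 with an exact 95% interval of 34.1 to 1030.3 that covers counting error only. The edgeR adjusted p was 0.0388. The fitted log2 fold change of -6.72 (SE 0.98) depends on the prior count and is not a bound.

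The call on Heyl was lost when any line was left out, with an edgeR adjusted p of 0.0622, 0.0772 and 0.0706 without Nf1/p53 dKO line 1, 2 or 3 and of 0.105, 0.124 and 0.112 without Nf1/Cdkn2a dKO line 1, 2 or 3, and at 0.129 with the line number as a replicate block. The fitted log2 fold change stayed at -9.49 to -6.17 with a line left out and was -6.83 with the block, and DESeq2 on the 6 lines gave an adjusted p of 5.3e-07 and limma-voom on the 18 cultures, with line as a random effect, 0.00548. The 3 muscle progenitor markers above 1 CPM in a line, Myf5, Cdh15 and Myod1, were also lower in every Nf1/Cdkn2a dKO line. Myf5, a myogenic determination factor, was at 28.03, 24.2 and 27.7 CPM in the lines of Nf1/p53 dKO and at most 0.0156 CPM in those of Nf1/Cdkn2a dKO, and Cdh15, the cadherin of muscle precursors, was at 27.9 to 97.7 CPM against 0.125 to 0.332 CPM. Pax7 and Pax3, which define muscle stem cells, were at or under 0.0277 and 0.156 CPM in every line. The part of these transcripts in the Heyl difference was not tested. Across the lines of Nf1/p53 dKO, Heyl was highest in line 3, but its cultures overlapped from line to line. An edgeR test among these lines found no difference in Heyl (adjusted p = 0.503). Of the 6 muscle progenitor markers, Cdh15, Myod1 and Pax7 were also highest in line 3. Myf5 and Msc were highest in line 1 and Pax3 in line 2.

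Hey1 (ENSMUSG00000040289, chr3:8663359-8667256, minus strand, 3 merged exons), a repressor of the same family, was at 4.33, 4.51 and 10.03 CPM in the lines of Nf1/p53 dKO and at 2.73, 2.06 and 4.32 CPM in those of Nf1/Cdkn2a dKO. The lines were separate only by the narrowest margin (4.33 CPM against 4.32 CPM), and the cultures overlapped. The log2 fold change of -1.05 (SE 0.47) did not pass the test (edgeR adjusted p = 0.250) and was -0.54 (SE 0.39) without Nf1/p53 dKO line 3. Hes1 (ENSMUSG00000022528, chr16:30064384-30067796, plus strand, 7 merged exons), the target found in most Notch-responsive tissues, was at 26.9, 50.9 and 21.2 CPM in the lines of Nf1/p53 dKO and at 26.7, 22.4 and 23.4 CPM in those of Nf1/Cdkn2a dKO. Apart from line 2 of Nf1/p53 dKO the lines lay within 21.2 to 26.9 CPM. The log2 fold change of -0.45 (SE 0.33, edgeR adjusted p = 0.467) turned to 0.02 (SE 0.21) without that line.

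**Figure D2:**
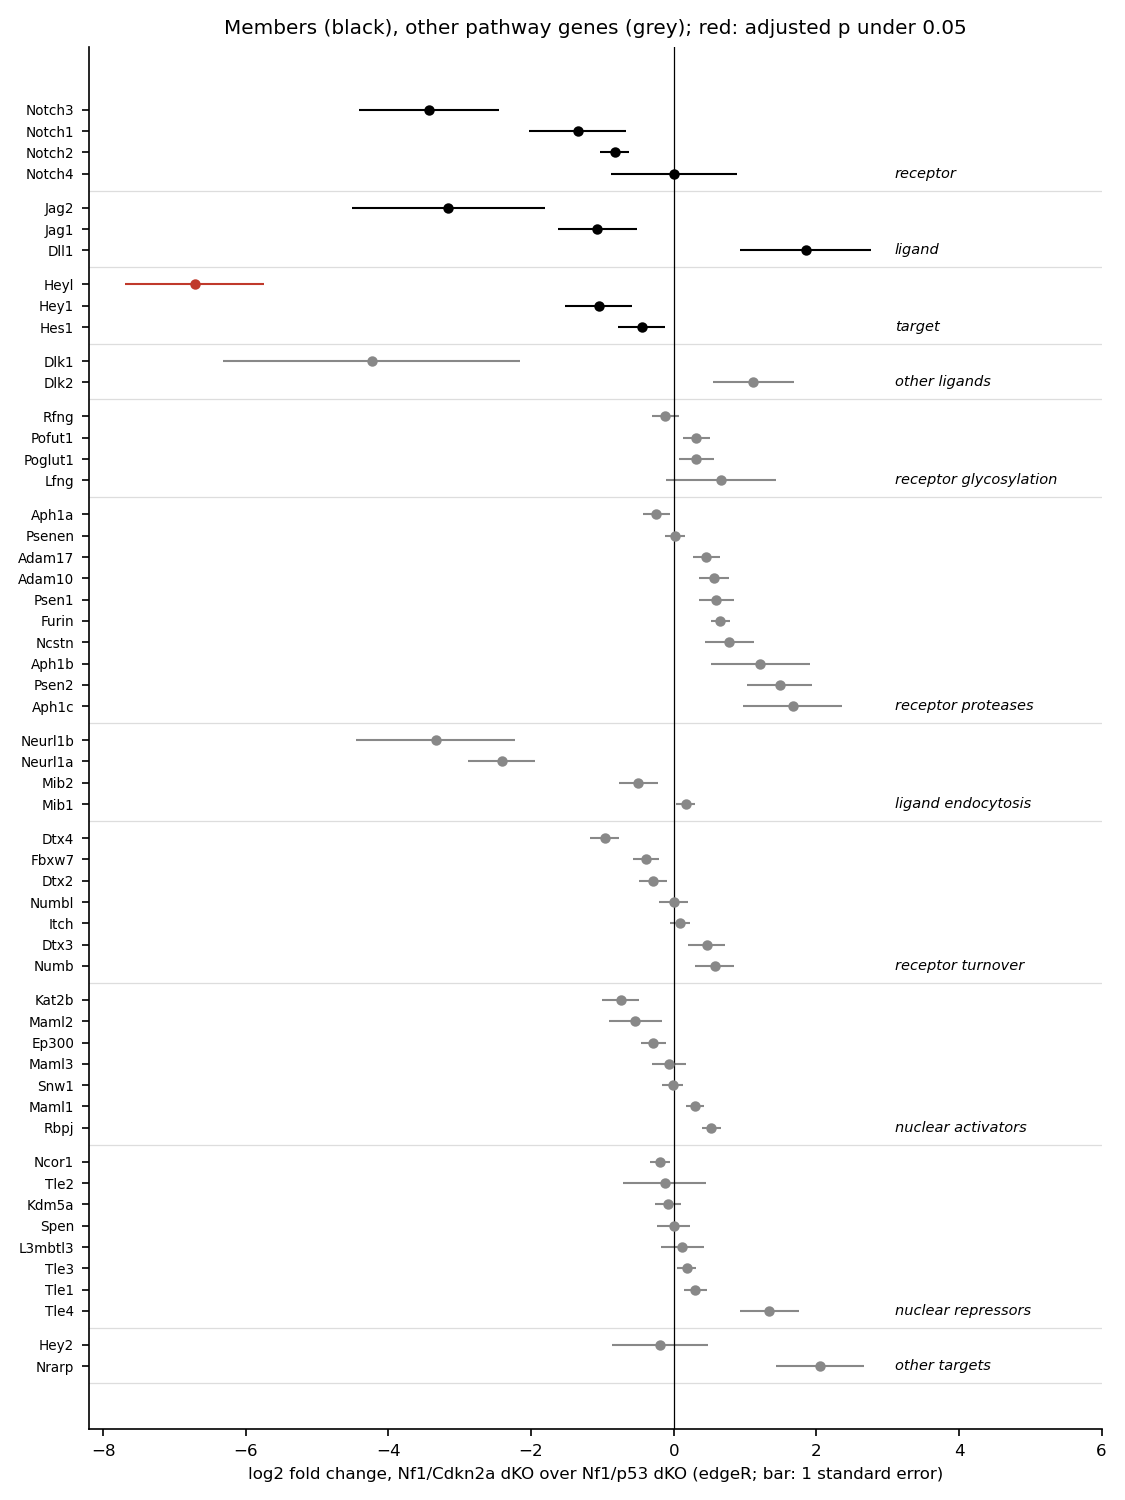
Log2 fold change (x axis, Nf1/Cdkn2a dKO over Nf1/p53 dKO, edgeR on 6 lines, bars 1 standard error) of the 10 genes (black, with Heyl in red as the gene with an adjusted p under 0.05) and of tested pathway genes (grey), grouped by role (y axis). Most of the 10 genes lie left of 0, and 9 of the 10 receptor proteases lie right of it without passing the test.

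How much of each component the lines held was compared per length, as CPM per kilobase of merged exon in GENCODE M21. In Nf1/p53 dKO, Notch2 had the highest mean level, at 19.5 ± 4.73 CPM per kb (SD, n = 3 lines), followed by Hes1 at 16.2 ± 7.75, Jag1 at 9.96 ± 6.18, Notch1 at 2.41 ± 1.91 and Hey1 at 1.93 ± 0.993. Notch3, Notch4, Dll1, Jag2 and Heyl followed at 0.832, 0.505, 0.452, 0.262 and 0.249, and every gene overlapped its neighbor in this order in its range over the 3 lines. In Nf1/Cdkn2a dKO, Hes1 was at 11.9 ± 1.11 CPM per kb and Notch2 at 10.99 ± 0.974, which overlapped, and Jag1 at 4.74 ± 1.87 was separate from both. Dll1 came next there, at 1.63 ± 0.986, before Notch1 (0.947), Hey1 (0.930), Notch4 (0.505), Notch3 (0.0768), Jag2 (0.0289) and Heyl (0.00209, from 2 counts). Below Jag1, neighbors overlapped except Notch4 and Notch3. These levels rest on exon lengths that merge all annotated transcripts, so a gene used mainly as a short transcript is understated.

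Notch2 took most of the receptor RNA in every line, from 78.2% in Nf1/p53 dKO line 3 to 90.1% in Nf1/Cdkn2a dKO line 2. Notch1 held 3.97 to 15.1% of it, with the highest shares in line 3 of either genotype (15.1% and 11.6%). Notch3 reached 6.41% in Nf1/p53 dKO line 3 and was at most 1.68% elsewhere, while Notch4 ranged from 0.309% to 5.68%. The receptors summed to 16.2, 23.1 and 30.5 CPM per kb in the Nf1/p53 dKO lines and to 12.1, 11.4 and 14.1 in the Nf1/Cdkn2a dKO lines, so this sum separated the lines by genotype, which was set largely by Notch2.

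Jag1 likewise led the ligands, with 66.2 to 98.0% of the summed ligand level. Dll1 held 18.3, 33.0 and 23.2% of it in the Nf1/Cdkn2a dKO lines and 2.31, 0.572 and 19.4% in the Nf1/p53 dKO lines, where line 3 again stood with the other genotype. Hes1 led the targets with 75.4 to 94.6%, and its lowest share was in Nf1/p53 dKO line 3, where Hey1 held 22.3%. Line 3 of Nf1/p53 dKO was thus the line with the lowest shares of Notch2 and Hes1 and, among the Nf1/p53 dKO lines, of Jag1.

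**Figure D3:**
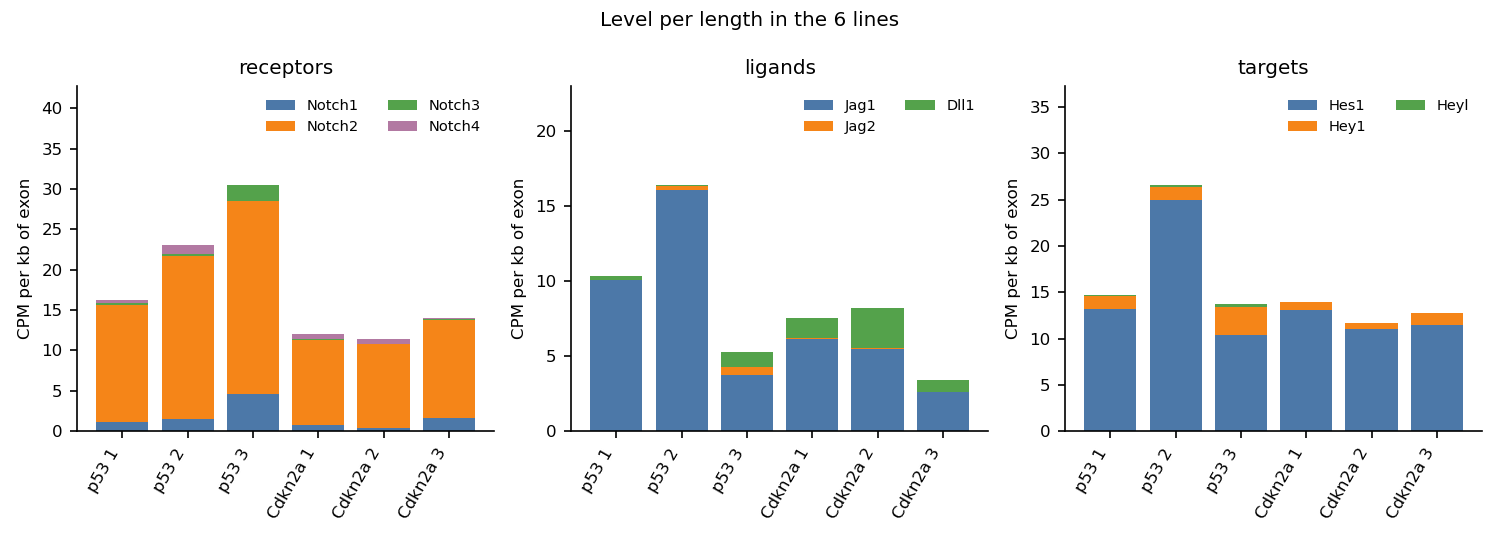
Stacked levels in CPM per kb of exon (y axis, from 0) of the receptors, ligands and targets in the 6 lines (x axis; p53, Nf1/p53 dKO; Cdkn2a, Nf1/Cdkn2a dKO). Notch2, Jag1 and Hes1 make up most of each stack, and Dll1 is visible in the 3 Nf1/Cdkn2a dKO lines and in Nf1/p53 dKO line 3.

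Lines of a genotype were compared with each other by an edgeR test over the 18 cultures that asks whether its 3 lines differ. Of the 10 genes, 9 differed among the Nf1/p53 dKO lines, beside 73.2% of all 14690 genes tested, and 9 differed among the Nf1/Cdkn2a dKO lines, beside 56.8%. DESeq2's likelihood ratio test called 9 of the 10 genes among the Nf1/p53 dKO lines, beside 79.3% of all genes, and 5 of the 8 to which it gave an adjusted p among the Nf1/Cdkn2a dKO lines, beside 56.1%. In both genotypes Heyl was the exception by edgeR (adjusted p = 0.503 and 0.293). Among the Nf1/Cdkn2a dKO lines it had 2 counts in all, too few for any difference to be called. The edgeR p-values set the differences among lines against the spread between cultures of a line, which may be technical. The evidence was strongest for Jag1, with an adjusted p of 7.9e-17 among the Nf1/p53 dKO lines and 1.5e-11 among the Nf1/Cdkn2a dKO lines, and for Notch1, with 2.4e-14 and 2.1e-11. It was weakest among the Nf1/Cdkn2a dKO lines for Hes1 (adjusted p = 0.0369) and Notch2 (0.0344), whose levels in those lines spanned 22.4 to 26.7 CPM and 111 to 131 CPM. Cultures of a line agreed most closely for Hes1, Notch2 and Jag1, with a median SD over cultures of 5.19, 6.94 and 7.55% of the line's level, and least for Jag2, Heyl and Notch3, at 69.7, 46.8 and 31.9%.

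The order of lines differed between genes. Within each genotype line 3 was the highest for Notch1, Notch2, Notch3 and Hey1 and the lowest for Notch4 and Jag1, although a line number is only a name and does not tie a line of one genotype to a line of the other. Over all 6 lines Notch1 ran from Nf1/p53 dKO line 3 (65.6 CPM) through Nf1/Cdkn2a dKO line 3 (23.2) and Nf1/p53 dKO lines 2 and 1 (20.8 and 16.4) to Nf1/Cdkn2a dKO lines 1 and 2 (10.7 and 6.46), and only the second and the third in this order had overlapping cultures. Notch4 ran from Nf1/p53 dKO line 2 (8.87 CPM) to Nf1/p53 dKO line 3 (0.761 CPM), with overlapping cultures between Nf1/Cdkn2a dKO lines 1 and 2 alone. For Jag1 no neighbors in the order had overlapping cultures.

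For Notch2 the upper 3 places went to Nf1/p53 dKO lines 3, 2 and 1, of which line 1 overlapped the next, Nf1/Cdkn2a dKO line 3, and Nf1/Cdkn2a dKO lines 3 and 1, and 1 and 2, overlapped as neighbors. For Notch3 the only breaks were below Nf1/p53 dKO line 3 and between the genotypes' line means, where the cultures of Nf1/p53 dKO line 2 did not reach those of Nf1/Cdkn2a dKO line 3. For Hey1, Nf1/p53 dKO line 3 stood apart at the top, and Nf1/p53 dKO lines 2 and 1 and Nf1/Cdkn2a dKO line 3 overlapped from neighbor to neighbor. Dll1 was separate at the top, in Nf1/Cdkn2a dKO line 2 (11.5 CPM), and between Nf1/Cdkn2a dKO line 3 (3.33 CPM) and Nf1/p53 dKO line 1 (1.01 CPM). Jag2 was separate only below Nf1/p53 dKO lines 3 and 2, and Heyl only between the genotypes.

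**Figure D4:**
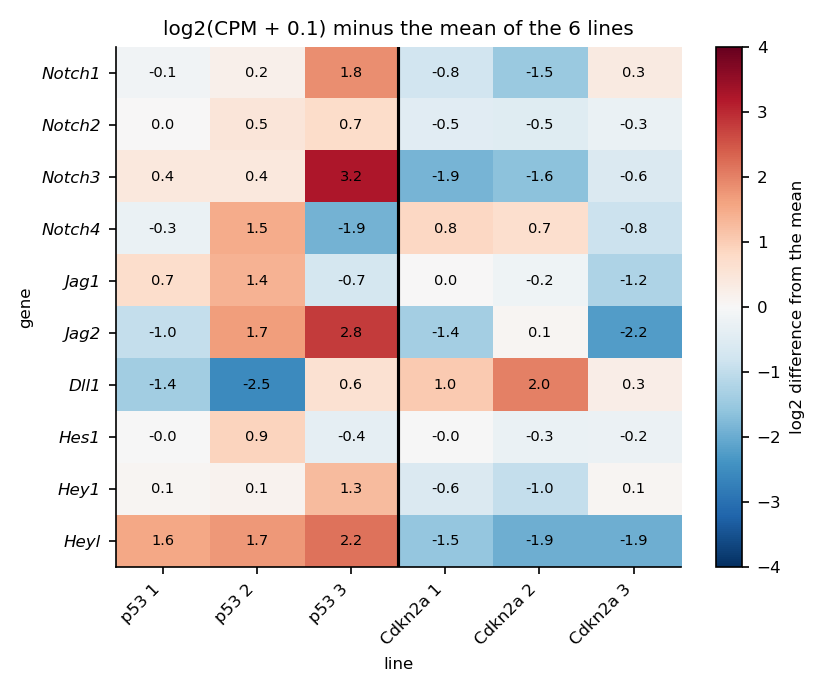
Log2(CPM + 0.1) of each gene (rows) in each line (columns; p53, Nf1/p53 dKO; Cdkn2a, Nf1/Cdkn2a dKO) minus its mean over the 6 lines, with the value in each cell and color from blue (below the mean) to red (above). Notch3 in Nf1/p53 dKO line 3 is 3.225 above its mean, and Heyl is above its mean in the 3 Nf1/p53 dKO lines and below it in the 3 Nf1/Cdkn2a dKO lines.

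The rest of the pathway was described from a list of 51 genes, of which 45 passed the filter. None was called between genotypes by edgeR, 12 had an unadjusted p under 0.05 (beside 22.4% of all genes), and DESeq2 called 8 (beside 14.4%). The log2 fold changes were negative for 21 and positive for 24 (median 0.09, against -0.0232 over all genes tested). Lines did not overlap for 5 genes lower in Nf1/Cdkn2a dKO and 11 higher, where 16.6% and 14.8% of all genes did so. Of the genes not tested, Hes5, a classic target in neural progenitors, had no count in any of the 18 libraries, Dtx1 had at most 2 counts in a library, and Dll3, Dll4, Mfng and Hes7 were sparse, Dll4 with 23 counts over all Nf1/p53 dKO cultures and 17 over all Nf1/Cdkn2a dKO cultures.

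The proteases that mature and cut the receptor included no gene that passed the edgeR test. Of 10 such genes, 9 had a positive log2 fold change, as had 7332 of all 15207 genes, 6 had separate lines that were higher in Nf1/Cdkn2a dKO, beside 14.8% of all genes, and the median was 0.62. The highest was Aph1c, a γ-secretase subunit, at 1.67 (SE 0.70, edgeR adjusted p = 0.223), with 7 to 67 counts in a line; reads of Aph1c and its near-identical neighbor Aph1b may be exchanged, so its value is uncertain. The lowest was Aph1a, another form of that subunit, at -0.24 (SE 0.19, adjusted p = 0.484). Some genes were picked once their values were known. Of these, Furin, which cleaves the receptor on its way to the surface, was at 146, 152 and 145 CPM in the lines of Nf1/p53 dKO and at 255, 229 and 211 CPM in those of Nf1/Cdkn2a dKO (log2 fold change 0.65, SE 0.13, edgeR adjusted p = 0.0598, DESeq2 0.000295), and Psen2, a catalytic subunit of γ-secretase, was at 4.23 ± 2.15 CPM against 11.8 ± 1.84 CPM (SD, n = 3 lines each, edgeR adjusted p = 0.126, DESeq2 0.0146). For Furin, the spread within a genotype was small beside the difference, and line 3 of Nf1/p53 dKO did not stand apart, whereas for Psen2 it was the lowest line at 1.83 CPM. Ncstn, the nicastrin subunit, also picked so, was at 89.3, 94.2 and 37.0 CPM against 131, 129 and 118 CPM (adjusted p = 0.243).

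The genes for ligand endocytosis and ligand relatives leaned the other way or split. Neurl1b, an E3 ligase that acts on Notch ligands, had a log2 fold change of -3.34 (SE 1.11, edgeR adjusted p = 0.151, DESeq2 0.00775), with 12.6 CPM in Nf1/p53 dKO line 3, 0.915 and 1.84 CPM in lines 1 and 2, and 0.231 to 0.866 CPM in those of Nf1/Cdkn2a dKO. Without Nf1/p53 dKO line 3 it was -1.44. Its relative Neurl1a, picked once its values were known, had the lowest adjusted p of the list, 0.0551, at 3.08, 7.001 and 6.21 CPM against 1.19, 0.635 and 1.24 CPM (log2 fold change -2.41, SE 0.47, DESeq2 adjusted p = 1.8e-05). Mib1, the broadly used ligase for Notch ligands, had the highest value of the role, 0.17 (SE 0.13, adjusted p = 0.483), at 134 to 155 CPM against 152 to 169.9 CPM. Dlk1, a noncanonical ligand relative that is also imprinted, had 86.7 CPM in Nf1/p53 dKO line 2 and 0 to 5.37 CPM elsewhere (log2 fold change -4.23, SE 2.08, adjusted p = 0.285; -1.02 without that line), and Dlk2 was the higher of the pair at 1.12 (SE 0.57, adjusted p = 0.299).

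Among genes that modify or turn over the receptor, Lfng, a Fringe glycosyltransferase, had a log2 fold change of 0.67 (SE 0.77) and Rfng, another Fringe, -0.12 (SE 0.19), with edgeR adjusted p of 0.643 and 0.740. Numb, an inhibitor of the receptor, was highest of its role at 0.57 (SE 0.27, adjusted p = 0.274), and Dtx4, a Deltex ligase, lowest at -0.97 (SE 0.20, edgeR adjusted p = 0.0637, DESeq2 5.6e-05). Dtx4 had separate lines, at 18.9, 16.3 and 18.4 CPM in Nf1/p53 dKO and 9.13, 10.4 and 7.88 CPM in Nf1/Cdkn2a dKO.

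In the nucleus, Rbpj was at 280.4, 297 and 299 CPM in the lines of Nf1/p53 dKO and at 401, 456 and 406 CPM in those of Nf1/Cdkn2a dKO. These lines did not overlap, nor did their cultures, and the log2 fold change was 0.53 (SE 0.13) with an edgeR adjusted p of 0.0864 and a DESeq2 adjusted p of 0.00164. Kat2b, an acetyltransferase coactivator, was lowest of the activators at -0.74 (SE 0.26, adjusted p = 0.164). Of the repressors, Tle4, a Groucho corepressor, was highest at 1.34 (SE 0.41, edgeR adjusted p = 0.128, DESeq2 0.0186). Nrarp, a target that limits Notch signaling, was at 0.825, 0.297 and 0.291 CPM in the lines of Nf1/p53 dKO and at 1.22, 3.06 and 1.60 CPM in those of Nf1/Cdkn2a dKO, the direction opposite to Heyl and Hey1. Its log2 fold change was 2.05 (SE 0.61) with an edgeR adjusted p of 0.122 and a DESeq2 adjusted p of 0.0179, and Hey2, the third Hey family gene, was at -0.19 (SE 0.67, adjusted p = 0.887) with 0.138 to 0.606 CPM. The fitted values of the target genes thus had mixed signs. Of the 5 tested targets edgeR called Heyl, beside 1.80% of all genes. DESeq2 called Heyl (lower) and Nrarp (higher), beside 14.4% of all genes to which it gave an adjusted p.

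The genes whose levels most resembled those of Jag2, Notch3 and Dll1 over the 6 lines were taken from 9144 genes with a mean of at least 10 CPM, by Pearson's r of log2(CPM + 0.1), given as a description since the 6 points share libraries and genotypes. These 3 were the most variable over lines of the members with a mean of at least 1 CPM, which left out Heyl. The genes for Notch3 were Dcps (r = 0.995), 9430015G10Rik (0.994) and Mamstr (0.994). Mamstr, a coactivator of the muscle factor MEF2, was at 4.90, 5.21 and 78.3 CPM in the lines of Nf1/p53 dKO and 0.257, 0.202 and 1.52 CPM in those of Nf1/Cdkn2a dKO, so its steps were of the size of those of Notch3 or larger, whereas Dcps, a scavenger decapping enzyme, spanned 17.4 to 37.0 CPM. For Jag2 they included Shf (0.994) and Gm8186 (0.985), and for Dll1 they were Pgls (0.986), Rapgef1 (0.981) and B3galnt2 (0.979). Pgls, the lactonase of the pentose phosphate pathway, was at 74.5, 54.2 and 93.3 CPM in the lines of Nf1/p53 dKO and 104, 116 and 89.0 CPM in those of Nf1/Cdkn2a dKO, a much narrower range than that of Dll1.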

How the data were processed

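RNA-seq was run on 18 libraries, 3 cultures of each of 6 cell lines. The authors deposited raw counts, unnormalized whole-number read totals for each gene. The submitters' processing notes name CASAVA, STAR 2.5 and DESeq2 1.14.1, and the labels name GRCm38/mm10. The counting tool, annotation and use of strand are not given in the sources used here, so genes with antisense or other overlapping neighbors are uncertain. Counts of the 3 cultures of a line were summed, filtered with filterByExpr (minimum count 10, minimum total 15), scaled with TMM and tested with edgeR 4.0.16 (R 4.3.3), since a line is 1 tumor. CPM and log2 fold changes were computed here from these counts. The SE of an edgeR log2 fold change is its absolute value divided by the square root of the quasi-likelihood F statistic. Lines of a genotype were compared with an edgeR F test over cultures. Alternatives used DESeq2 1.42.0 and limma 3.58.1. Replicate cultures differed beyond sampling noise (chi-square per degree of freedom 3.57 to 29.2). Positions and exon lengths are from GENCODE M21 (GRCm38). The fits were tested on simulated data.

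The members, the pathway and marker lists and the tests were chosen with earlier results of these data known. Named are all 10 members, the highest and lowest tested gene of each pathway role, markers over 1 CPM or defining a cell type, and the 3 genes most like each of the 3 most variable members with a mean of at least 1 CPM. Other genes are marked as picked once their values were known. Some single-gene values that this rule names are not reported here.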

Additional observations from a re-analysis of the deposited data

Results flagged for a closer look

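The cultures of each genotype were examined for 1 value far from the others, with Dixon's test at a critical value of 0.493 for 9 cultures. For independent values it flags about 1 in 20 groups by chance. The 9 cultures come from 3 lines and are not independent, so this rate need not hold here. Of 20 groups, 2 were so marked. Notch3 was highest in culture 3 of Nf1/Cdkn2a dKO line 3 (1.669 CPM), with the next culture of that genotype at 0.8146 CPM. Heyl was detected in culture 2 of Nf1/Cdkn2a dKO line 1 (0.1066 CPM, 2 counts), with the other 8 cultures at 0.0 CPM. With those 8 at 0.0 CPM, any count in the remaining culture would have been marked.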

How the results depend on the processing

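The count of members called between genotypes was 1 with edgeR on the 6 lines. It was 3 with DESeq2 on the 6 lines. With edgeR on the 18 cultures as separate samples it was 7, and with limma-voom with line as a random effect 2. Jag2 was not tested in these 2 fits. With at least 10 counts in every line it was 0, and Heyl and Jag2 were then not tested. The count was also 0 with the line number as a replicate block and with any line left out. The genes called in all were 274 of 15207 tested with edgeR on the 6 lines and 2171 of 15116 with DESeq2. They were 6096 of 13110 with the 18 cultures, 2173 of 13110 with limma-voom and 0 of 15207 with the block. They were 172, 27 and 107 without Nf1/p53 dKO line 1, 2 or 3 and 0, 2 and 23 without Nf1/Cdkn2a dKO line 1, 2 or 3. Where 0 were called, an unadjusted p under 0.05 was found for 2740 genes (block) and 2668 (without Nf1/Cdkn2a dKO line 1). Pathway genes called were 0, and 8, 28 and 12 under DESeq2, the 18 cultures and limma-voom. Members called among the Nf1/Cdkn2a dKO lines were 9 of 10, beside 56.8% of all genes. With DESeq2's likelihood ratio test they were 5 of the 8 given an adjusted p, beside 56.1%. They were 6 to 8 with a culture left out, and the culture number as a replicate block left 9 called in both genotypes. The share of all genes was not computed for these last runs. Lines with the same number had an r of deviations of -0.124, -0.134 and -0.0857 between the genotypes. Cultures with the same number had an r of -0.133 to 0.209 over 27 pairs. No r was taken for unlike numbers, so these values cannot settle whether either number paired the samples.

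The log2 fold change of Notch4 turned to -0.0375 with upper-quartile normalization and to -0.018 with at least 10 counts in every line, and ranged from -0.4882 to 1.2959 with a line left out. That of Hes1 ranged from -0.686 to 0.0185 and that of Hey2 from -0.726 to 0.4262. The cause of these changes was not tested. Alternatives were run for 32 members and pathway genes (11 to 14 alternatives each), and these 3 alone changed sign. They were not run for single marker genes or the genes most like a member. Counts limit Heyl, Jag2, Aph1c, Hey2, Nrarp and Neurl1b, each under 1 CPM in several lines.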
